A study of Mus musculus with 3 samples.

Results

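The Toll-like receptors described here are 10 mouse genes, Tlr1, Tlr2, Tlr3, Tlr4, Tlr5, Tlr6, Tlr7, Tlr8, Tlr9 and Tlr13, taken by symbol and identifier from the 55536 Ensembl genes of the deposited gene tables. All 10 were measured in cytosolic RNA of bone marrow-derived macrophages, which are phagocytes grown from marrow cells, of the C57BL/6J strain. The study held 1 group with no untreated or singly treated group beside it. Each of its 3 biological replicates had a first exposure of 12 h to Lipid A at 100 ng/ml, a washout of 12 h, and a second exposure of 50 min at the same 100 ng/ml. Levels and their spread are therefore what could be compared, and none of the values tells what Lipid A did. The labels name 1 strain-level donor for all samples and do not say whether the replicates came from separate mice, so the spread may be partly technical.

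Toll-like receptors are membrane proteins of innate immune cells that bind molecules of microbes through an ectodomain of leucine-rich repeats and signal through a cytoplasmic TIR domain. TLR1, TLR2, TLR4, TLR5 and TLR6 act mainly at the cell surface on bacterial lipids, lipoproteins and flagellin, whereas TLR3, TLR7, TLR8, TLR9 and TLR13 act in endosomes on nucleic acids. TLR4, with its partner MD-2, is the receptor for Lipid A, the lipid anchor of bacterial lipopolysaccharide. All of them signal through the adaptor MyD88 except TLR3, which uses TRIF, and TLR4 uses both.

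The listed receptors were present almost as a whole. Of the 10 receptors, 9 had at least 1 TPM (a level corrected for transcript length and scaled to the library) in every library, against 17.2% of all genes and 41.1% of protein-coding genes. The missing one of the 10 was Tlr5, the flagellin receptor. The mouse receptors Tlr11 and Tlr12, outside this list, were also under 1 TPM in every library. Tlr7, Tlr2, Tlr1, Tlr13 and Tlr8 formed an upper group with means of 55.7 to 81.3 TPM, Tlr9 followed at 42.7 TPM, and Tlr4, Tlr3 and Tlr6 stood at 12.4 to 24.4 TPM. All 9 lay above the median of the expressed protein-coding genes, 9.20 TPM. For Tlr6 this rested in part on a short transcript, as it had 7.35 TPM over transcripts of at least 1500 bases. The median was not computed again on that basis. Summed over the family, the level was 426 TPM in replicate 1, 323 TPM in replicate 2 and 576 TPM in replicate 3.

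The depth was 47972062 expected counts in replicate 1, 54409436 in replicate 2 and 53491957 in replicate 3, so that 3 counts correspond to 0.0551 to 0.0625 CPM (a gene's counts scaled to the library's total, with no correction for length). Protein-coding genes took 33.3%, 26.1% and 37.0% of TPM, with the rest on other classes of RNA, and this share enters every receptor's TPM. As deposited, TPM was lowest in replicate 2 for 80.0% of the genes tested for spread and for 9 of the 10 receptors. Comparisons between libraries are therefore given in CPM scaled by TMM, a normalisation on the bulk of genes. The macrophage markers fixed for the check, 10 of 10, were expressed, with a summed level of 6400 to 8365 TPM. Of 6 B cell markers 0 were expressed in every library and their sum was 0.96 to 1.98 TPM; the sums were 0.45 to 0.62 TPM for 5 plasmacytoid dendritic cell markers and 0.56 to 0.71 TPM for 6 conventional dendritic cell markers. Neutrophil markers summed to 39.3 to 51.6 TPM over 9 genes, of which 3 were expressed in every library: Csf3r, which made up most of the sum, S100a8 at 3.44 to 4.16 TPM and S100a9 at 4.19 to 6.18 TPM; Ly6g was at 0. In these bulk samples fewer cells of a type and less RNA per cell cannot be told apart.

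**Figure D1:**
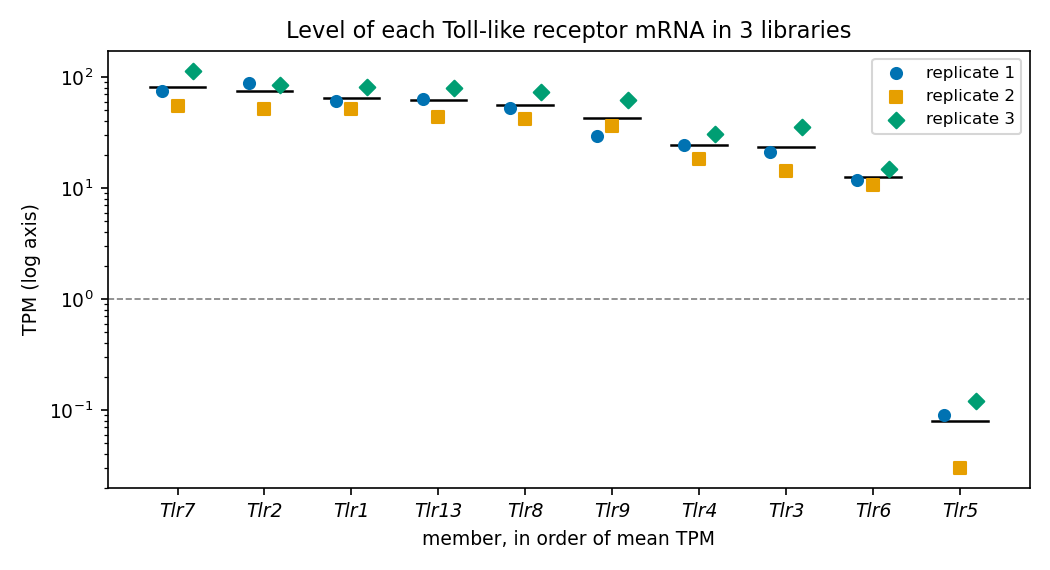
TPM of each Toll-like receptor (log axis) in replicates 1, 2 and 3, with a horizontal bar at the mean and a dashed line at 1 TPM. Tlr7 to Tlr6 all sit above 10 TPM, and Tlr5 stays between 0.03 and 0.12 TPM.

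Reads of related receptors could be separated except in part for Tlr1 and Tlr6. Tlr1 and Tlr6 lie next to each other on chromosome 5 with 18467 bases and 0 annotated genes between them, and Tlr8 and Tlr7 lie next to each other on chromosome X, 40599 bases apart with 0 genes between. Among the 45 pairs of receptors, Tlr1 and Tlr6 alone shared a stretch of 31 bases or more. Counted as different overlapping windows of 31 bases, they shared 607, 18.3% of those in the transcripts of Tlr1 and 16.4% of those in Tlr6. Their longest identical run was 229 bases, against 13 bases for Tlr7 and Tlr8. It is printed here with 30 bases on each side because reads inside it fit both genes equally. In the mm10 assembly the Tlr1 stretch is chr5:64925507-64925795, on the minus strand, in exon 4 of Tlr1-202 and codons 480 to 576. The Tlr6 stretch is chr5:64953798-64954086, on the minus strand, in exon 2 of Tlr6-201 and codons 493 to 589. Capitals mark the 2 positions at which the lines differ, in the GENCODE M21 transcripts, 5′ to 3′.
Tlr1: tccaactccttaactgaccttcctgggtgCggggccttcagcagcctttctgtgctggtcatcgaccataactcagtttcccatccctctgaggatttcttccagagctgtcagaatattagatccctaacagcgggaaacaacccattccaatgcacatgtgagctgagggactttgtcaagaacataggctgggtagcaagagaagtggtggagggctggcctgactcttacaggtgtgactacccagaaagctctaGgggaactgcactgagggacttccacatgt
Tlr6: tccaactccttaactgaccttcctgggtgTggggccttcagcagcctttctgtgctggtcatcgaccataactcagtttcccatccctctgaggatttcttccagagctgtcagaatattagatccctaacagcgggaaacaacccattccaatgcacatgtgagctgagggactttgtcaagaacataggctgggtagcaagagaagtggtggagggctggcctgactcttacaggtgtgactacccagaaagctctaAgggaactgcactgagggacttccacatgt
The doubt this left in the counts was small: the deposited posterior SD was 5.14, 5.88 and 7.93 reads for both genes, on 10348, 13277 and 14092 expected counts for Tlr1 and 1801, 2155 and 2343 for Tlr6. For Tlr3 it was at most 0.77 reads, and for the other receptors 0.

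Among the surface receptors, Tlr2 was the highest. TLR2 binds bacterial lipoproteins as a heterodimer with TLR1 or TLR6. Its gene lies on chromosome 3 (chr3:83836272-83841767, minus strand) and had 89.0, 51.8 and 84.9 TPM in replicates 1, 2 and 3, a mean of 75.3 ± 20.4 TPM (SD, n = 3). Tlr1, whose protein completes the receptor for triacylated lipoproteins, had 60.4, 51.7 and 81.0 TPM (64.3 ± 15.0). Tlr6, whose protein completes the receptor for diacylated lipoproteins, had 11.9, 10.6 and 14.9 TPM (12.4 ± 2.21). Tlr1 was thus above Tlr6 in all 3 libraries, without overlap. Tlr4, the Lipid A receptor on chromosome 4 (chr4:66827584-66930284, plus strand), had 24.2, 18.4 and 30.6 TPM (24.4 ± 6.10), a level above that of 77.4% of the expressed protein-coding genes and below Tlr2 in every library. Tlr5 had 11, 9 and 16 counts in all, or 0.216, 0.166 and 0.316 CPM, each above the limit that 3 counts give, and its level was 0.08 ± 0.0458 TPM.

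Endosomal receptors held 3 of the 5 highest places. Tlr7, a sensor of single-stranded RNA on chromosome X (chrX:167304929-167330558, minus strand), had 74.8, 54.8 and 114 TPM in replicates 1, 2 and 3, the highest mean of the family at 81.3 ± 30.2 TPM (SD, n = 3). Its neighbour Tlr8, also a receptor for RNA, had 52.4, 41.9 and 72.9 TPM (55.7 ± 15.8). Tlr13, a receptor for bacterial ribosomal RNA found in mice and not in humans, had 62.8, 43.9 and 79.1 TPM (61.9 ± 17.6), also from chromosome X (chrX:106143204-106160493, plus strand). In all of these replicate 3 was the highest library and replicate 2 the lowest in TPM, as in Tlr1, Tlr3, Tlr4, Tlr5 and Tlr6. Tlr9, the receptor for unmethylated CpG DNA on chromosome 9 (chr9:106222598-106226883, plus strand), had 29.5, 36.1 and 62.4 TPM (42.7 ± 17.4) and was the only receptor with its lowest TPM in replicate 1. Tlr3, the receptor for double-stranded RNA on chromosome 8 (chr8:45395665-45411080, minus strand), had 21.1, 14.1 and 35.5 TPM (23.6 ± 10.9). An annotated antisense gene, Gm45542, overlaps Tlr3; it held 0, 2.61 and 2.36 counts, and the strand setting of the counting is not given in the sources used here. The remaining mouse receptors Tlr11 and Tlr12, which are endosomal and bind profilin of protozoa, stood at 0.257 ± 0.165 and 0.153 ± 0.0306 TPM (SD, n = 3).

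Set side by side, the surface receptors summed to 185, 132 and 211 TPM (176 ± 40.3) and the endosomal receptors to 241, 191 and 364 TPM (265 ± 89.2) in replicates 1, 2 and 3 (SD, n = 3). The surface sum was lower than the endosomal sum in 3 of 3 libraries, by a difference of -0.56 ± 0.21 in log2(TPM + 1). Of the 4 pairs of receptors fixed for comparison, Tlr1 exceeded Tlr6 by 2.27 ± 0.09 and Tlr2 exceeded Tlr4 by 1.58 ± 0.23 on the same scale. Tlr7 exceeded Tlr8 by 0.51 ± 0.13, and Tlr13 exceeded Tlr9 by 0.56 ± 0.44. The difference between Tlr13 and Tlr9 was 1.06 in replicate 1, 0.27 in replicate 2 and 0.34 in replicate 3, and its mean was 0.31 without replicate 1. Each of these differences had one sign in all 3 libraries, which gave p = 0.25 in an exact two-sided sign-flip permutation over libraries, before and after adjustment over the 4 pairs, the smallest p that 3 libraries allow.

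Along the order of the levels, 6 of the 9 steps between neighbours had one sign in all libraries. The order was set by the means of these same libraries, which favours one sign, so the count is a description only. Tlr7 and Tlr2, Tlr1 and Tlr13, and Tlr4 and Tlr3 exchanged places in 1 library each, with mean differences of 0.08 ± 0.33, 0.07 ± 0.15 and 0.11 ± 0.29 in log2(TPM + 1). Tlr2 and Tlr1 kept their order, but in replicate 2 the difference was only 0.0041. The widest step apart from that down to Tlr5 was between Tlr3 and Tlr6, 0.79 ± 0.41. In the second transcript table, computed over its own index and summed per gene, the receptors came in the same order by mean except that Tlr8 (25.3 TPM) preceded Tlr13 (24.5 TPM).

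All receptors but Tlr5 differed between the libraries by more than counting error. A Poisson test of each gene's counts against the library sizes called 9 of the 10 receptors at an adjusted p under 0.05, with Tlr5 not called. Over all 13827 genes that averaged 10 counts or more the same test called 70.4%, and among the 4138 genes that averaged 2000 or more, where those 9 receptors lie, it called 92.3%. The share called among the receptors was thus near that of genes of like depth. Without replicate 3 the test no longer called Tlr4, leaving 8, against 50.7% of all tested genes. The biological coefficient of variation (BCV, the spread between libraries beyond counting error, as a share of the mean) had a median of 0.168 over the receptors, against 0.166 over all tested genes and 0.129 over the genes that averaged 2000 counts or more. Of those high-count genes, 59.6% to 97.4% had a smaller BCV than each of the 9 receptors among them, the lowest share being that of Tlr6 and the highest that of Tlr9.

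Among the 9 receptors that averaged 2000 counts or more, Tlr9 and Tlr3 varied the most. Tlr9 had 134, 222 and 282 CPM in replicates 1, 2 and 3, a ratio of 2.10 between the highest and lowest library and a BCV of 0.256. Tlr3 had 90.6, 82.7 and 162 CPM, a ratio of 1.96 and a BCV of 0.253. Replicate 1 was the low library for Tlr9, while replicate 3 was the high one for Tlr3. Of the genes that averaged 2000 counts or more, 97.7% had a smaller ratio than Tlr9 and 97.0% a smaller ratio than Tlr3; the median ratio there was 1.19. Without replicate 3 the BCV of Tlr3 was 0.115, and without replicate 1 that of Tlr9 was 0.173. Of those 9, Tlr7 came next with 303, 293 and 445 CPM, a ratio of 1.52. Tlr5, with 9 to 16 counts, had a ratio of 1.90 and a BCV of 0.416, the highest BCV of the family. Tlr4 had the lowest ratio of the family, 1.25, with 128, 131 and 160 CPM.

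**Figure D2:**
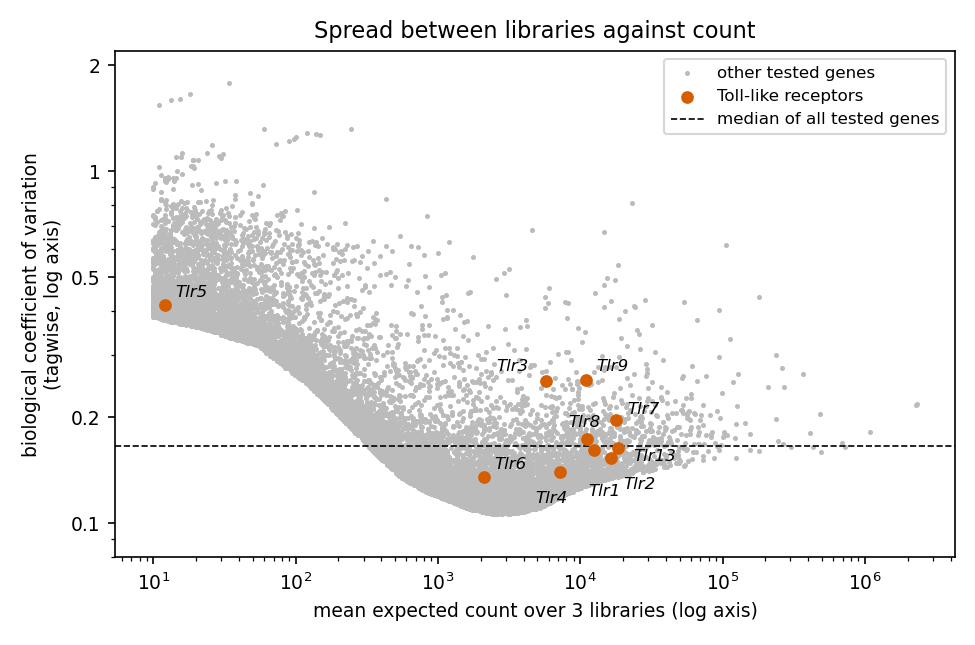
Biological coefficient of variation of each tested gene against its mean expected count (both axes log), with the Toll-like receptors in orange and the median of all tested genes as a dashed line. Tlr9 and Tlr3 stand at 0.256 and 0.253, above the other receptors of like count, and Tlr5, with 9 to 16 counts, at 0.416.

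Replicate 3 was the highest library in CPM for 9 of the 10 receptors, against 38% of all tested genes. The exception was Tlr2, with 347, 273 and 329 CPM in replicates 1, 2 and 3. Tlr5 is among the 9, but its 11, 9 and 16 counts did not differ beyond counting error. The 38% covers genes of all depths from an average of 10 counts. Of the 10 macrophage markers, 6 were highest in replicate 3. The lowest library was replicate 1 for Tlr1, Tlr4, Tlr6, Tlr8 and Tlr9 and replicate 2 for Tlr2, Tlr3, Tlr5, Tlr7 and Tlr13; for all tested genes these shares were 38.2% and 29.2%. Replicate 3 was lowest for 0 receptors and for 32.6% of all tested genes, and replicate 2 was highest for 0 receptors and for 32.4%. Replicate 1 was highest for 1 receptor and for 29.5%. The 9 of 10 stood with DESeq2 size factors, where 37.0% of all genes were highest in replicate 3, and with total expected counts, where 22.6% were. In TPM rescaled to protein-coding genes it was 8 of 10, against 24.1% of all genes, with Tlr6 highest in replicate 2 at 40.5 against 40.2 in replicate 3. Deposited TPM shifted all tested genes, with median deviations of 0.10, -0.23 and 0.13 log2 units in replicates 1, 2 and 3, whereas in TMM-scaled CPM these were -0.02, 0.0019 and 0.01. RNAs known to be kept in the nucleus ran the other way: Malat1 had 5966, 3089 and 1426 CPM, Neat1 had 636, 248 and 128 CPM, and Xist had 610, 194 and 53.0 CPM in replicates 1, 2 and 3. These RNAs were picked once their values were known, and their part in the receptors' spread was not tested. Beside the X-linked receptors, 0 counts were found in each library for the 4 Y-linked genes Uty, Kdm5d, Eif2s3y and Ddx3y.

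**Figure D3:**
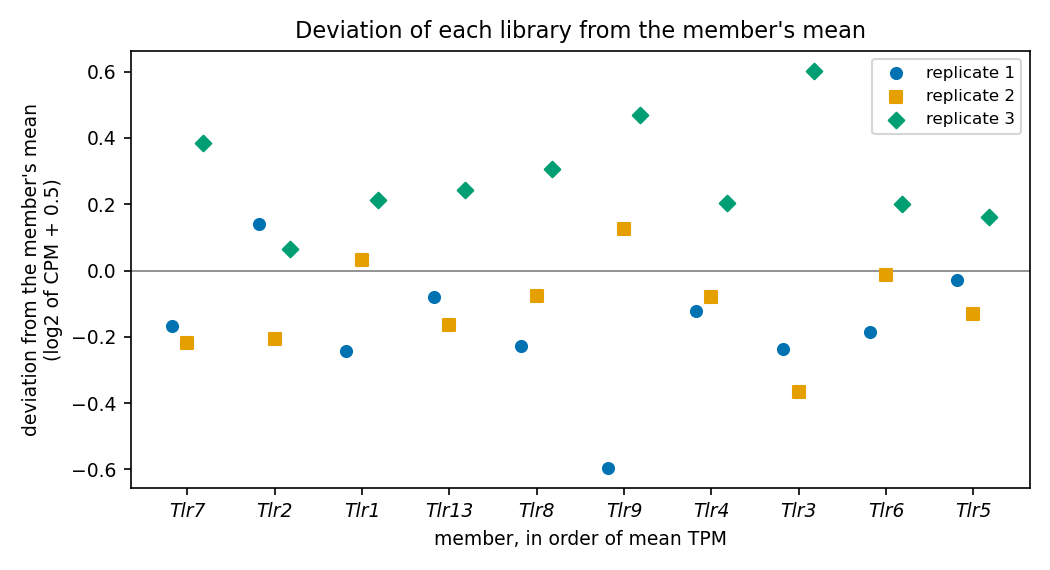
Deviation of each library from the receptor's own mean, in log2(CPM + 0.5) with TMM scaling, for replicates 1, 2 and 3. Replicate 3 (diamonds) is the highest point for every receptor but Tlr2, and the widest spreads are those of Tlr9 (-0.60 to 0.47) and Tlr3 (-0.37 to 0.60).

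Likeness was measured as the largest difference, over the 3 libraries, between 2 genes' deviations from their own means in log2(CPM + 0.5). Tlr1 and Tlr6 were the nearest pair of receptors, 0.0574 apart, followed by Tlr4 and Tlr6 at 0.0657. Within 0.1 of Tlr9 in every library lay 21 of the 13826 other tested genes, and within 0.1 of Tlr3 lay 39. For Tlr4 there were 1322 such genes, and for Tlr6 1222. Among the other genes of the pathway, the nearest to Tlr6 was Lgmn (0.0229), to Tlr1 Lbp (0.0258) and to Tlr4 Ticam1 (0.0308). Next came Tollip for Tlr5 (0.0374), Irf5 for Tlr8 (0.0555) and Traf6 for Tlr2 (0.0857). Beyond 0.1 lay Cd180 for Tlr7 (0.103), Ctss for Tlr13 (0.109), Irf7 for Tlr9 (0.172) and Sigirr for Tlr3 (0.186). Within 0.1 of Tlr8 lay 458 of all other tested genes. Each nearest gene is only the smallest distance over the listed genes, and a link between them was not tested. Sigirr had only 0.667, 0.407 and 1.17 CPM in replicates 1, 2 and 3, and Tlr5 0.216, 0.166 and 0.316 CPM. Lbp, named as the nearest to Tlr1, had only 1.31, 1.76 and 1.99 CPM. The 0.5 added to each value shrank the deviations of these low genes, so their distances are less certain. Depth and normalisation are shared by all of these values.

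Sequence upstream of the start sites is shown for 3 receptors that the values set apart: Tlr2, the exception to the replicate 3 pattern, Tlr9, the one with the widest ratio between libraries, and Tlr5, the one near 0. The windows are the bases before the RefSeq start on GRCm38.p6, 5′ to 3′ on the gene's strand, kept clear of annotated exons. Tlr2 is chr3:83841768-83841858 on the minus strand, Tlr9 is chr9:106222348-106222597 on the plus strand, and Tlr5 is chr1:182954538-182954787 on the plus strand. Capitals mark matches to 3 motifs searched on both strands: the NF-kB consensus, the interferon regulatory factor core AANNGAAA and the PU.1 core GAGGAAG.
Tlr2: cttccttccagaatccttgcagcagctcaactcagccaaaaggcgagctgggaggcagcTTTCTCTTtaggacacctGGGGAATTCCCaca
Tlr9: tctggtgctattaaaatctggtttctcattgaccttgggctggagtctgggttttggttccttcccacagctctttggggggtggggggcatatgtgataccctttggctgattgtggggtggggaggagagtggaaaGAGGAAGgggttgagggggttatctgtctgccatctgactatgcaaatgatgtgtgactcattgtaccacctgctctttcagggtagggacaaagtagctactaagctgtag
Tlr5: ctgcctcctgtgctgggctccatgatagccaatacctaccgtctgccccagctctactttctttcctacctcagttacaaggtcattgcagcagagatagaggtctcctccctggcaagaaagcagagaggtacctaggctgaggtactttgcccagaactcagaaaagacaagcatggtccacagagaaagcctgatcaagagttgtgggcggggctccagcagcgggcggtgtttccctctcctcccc
The 91 bases printed for Tlr2 stop at the nearest GENCODE start, which lies at -159 from the RefSeq start. In them the NF-kB matches overlap each other on both strands, 172 and 173 bases before the RefSeq start. An interferon regulatory factor core lies 191 bases before the RefSeq start. All of these lie much nearer to the GENCODE start. The Tlr9 window holds a PU.1 core 112 bases before the start, and these letters were not found in the Tlr5 window. Windows of 250 bases before the start were given for 8 of the 10 receptors, and these full windows were searched without removing annotated exons. The Tlr3 matches and the interferon regulatory factor match of Tlr1 named next fall outside the part that is clear of exons. The NF-kB consensus was in those of Tlr2 and Tlr3 and in 8.23% of 27025 genes, the interferon regulatory factor core in Tlr1, Tlr2, Tlr3 and Tlr6 and in 23.9% of genes, and the PU.1 core in Tlr1, Tlr9 and Tlr13 and in 12.0% of genes. The Tlr6 matches lie in the window of a RefSeq start whose nearest GENCODE start is at -881 from it. The window of the other RefSeq start of Tlr6, which lies by a GENCODE start, held no match. The motifs were chosen with the sequences in view, and a match is a description of letters.

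Most receptor mRNA lay on transcripts that hold the whole coding sequence. The annotation lists 38 transcripts for the 10 genes, 18 of them under 1500 bases, and all 18 lack the complete coding sequence. A single transcript carried at least 90% of TPM in 4 receptors: Tlr2-201 and Tlr9-201 are the only transcripts of their genes, Tlr13-201 carried 99.9% and Tlr4-201 97.8 ± 0.23% (SD, n = 3). In Tlr1, Tlr3, Tlr7 and Tlr8 the level was divided between long transcripts with the same coding sequence, which encode 795, 905, 1050 and 1032 residues. Tlr7-201 held 60.9 ± 3.54% of Tlr7 and Tlr7-202 14.1 ± 1.57%, and Tlr1-201 held 61.4 ± 3.73% of Tlr1 and Tlr1-202 31.4 ± 4.76%. Tlr3 was spread over Tlr3-205 with 33.6 ± 2.30%, Tlr3-201 with 33.2 ± 3.69% and Tlr3-206 with 19.2 ± 2.30%; Tlr3-206 has 1 exon and an incomplete coding start. For Tlr5, at 9 to 16 counts, the shares had no stable order.

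Short transcripts counted for much more in TPM than in reads. Tlr6-202, of 446 bases and with an incomplete coding end, held 41.3 ± 3.76% of the TPM of Tlr6 but 4.56 ± 0.54% of its reads (SD, n = 3). Transcripts under 1500 bases made up 20.7% of the TPM of Tlr7 and 19.9% of that of Tlr8, but 0.984% and 1.96% of their reads. Over transcripts of at least 1500 bases alone, a view added after the data were seen, the order began with Tlr2 (75.3 TPM), Tlr7 (64.3), Tlr13 (61.9) and Tlr1 (59.6), and Tlr6 stood at 7.35 TPM. The difference between Tlr1 and Tlr6 was then 2.86 in log2(TPM + 1).

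The deposited transcript tables divided some receptors differently. Tlr8-201 held 28.3 ± 5.73% of the TPM of Tlr8 in the first table and 0 in all libraries of the second, where Tlr8-202 held 70.5 ± 1.82% against 51.7 ± 7.18% in the first. Tlr7-202 held 27.6 ± 2.95% in the second table and 14.1% in the first, Tlr7-205 13.2% in both, and Tlr7-206 10.5 ± 6.72% in the second. Tlr3-205 was at 55.3 ± 3.64% in the second table, against 33.6% in the first. For Tlr8, Tlr7 and Tlr3 the choice between long transcripts thus moved further between tables than between libraries, while the count of receptors with a single transcript at 90% or more was 4 in both by the mean over libraries; in the second table Tlr4-201 had a mean of 90.5 ± 4.84% and was at 84.9% in replicate 1. Tlr6-202 held 49.1 ± 4.03% in the second table, Tlr8-204 held 14.5 ± 2.35% and Tlr1-203 held 12.6 ± 3.14%, all of them under 1500 bases.

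**Figure D4:**
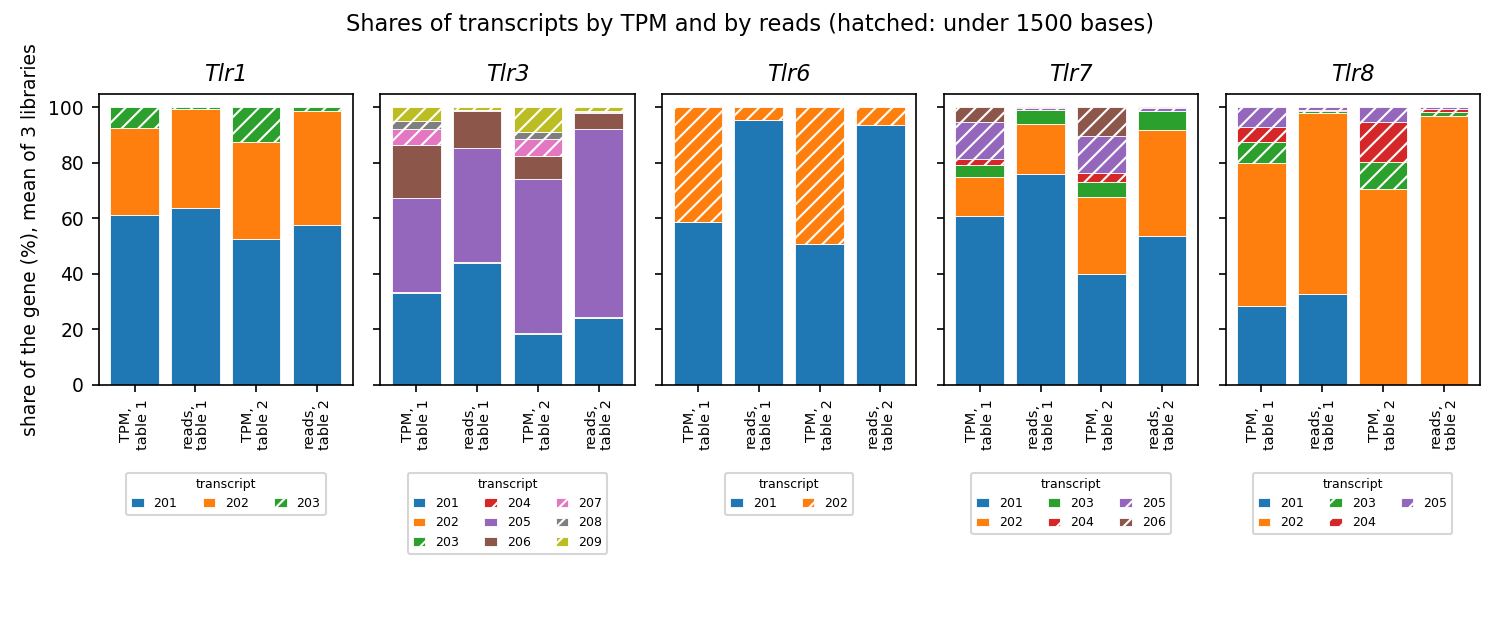
Share of each transcript in the TPM and in the reads of 5 receptors (mean of 3 libraries, percent), in the first and second transcript table, with transcripts under 1500 bases hatched. In Tlr6 the hatched transcript takes 41.3% of TPM and 4.56% of reads in the first table, and in Tlr8 transcript 201 is present in the first table and at 0 in the second.

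The partners of the receptors were expressed as well, from lists that had been drawn up by role. Of 10 co-receptors and chaperones, 9 had at least 1 TPM in every library, with a median of 68.1 TPM against 49.2 TPM for the receptors. Unc93b1, which carries the nucleic acid receptors to endosomes, led the list with 231, 221 and 297 TPM (249 ± 41.4, SD, n = 3), followed by Cd180, a receptor-like protein of the family that restrains TLR4, with 234, 147 and 318 TPM (233 ± 85.5). Lbp, the serum protein that hands lipopolysaccharide to CD14, was lowest at 0.71 ± 0.111 TPM. Cd14 itself had 287, 138 and 174 TPM, and Ly96, which encodes MD-2, had 24.8 ± 4.55 TPM, beside 24.4 ± 6.10 TPM for Tlr4. All 10 varied beyond counting error, against 70.4% of all tested genes and 92.3% of those that averaged 2000 counts or more. Of the 10, 4 were highest in replicate 3, against 38% of all tested genes. Cd14, like Tlr2, was highest in replicate 1 at 536 CPM, against 348 and 328 CPM in replicates 2 and 3.

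Endosomal proteases, which cut the nucleic acid receptors into their signalling form, had 4 of 5 genes expressed and a median of 666 TPM. Ctsb had 2150 ± 660 TPM and Ctss 1369 ± 337 TPM (SD, n = 3), and Ctsk was lowest at 0.903 ± 0.515 TPM. All 5 were highest in replicate 3 in CPM, against 38% of all tested genes.

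Among 16 adaptors, kinases and interferon regulatory factors, 15 were expressed, with a median of 12.8 TPM. Irf7, the transcription factor that drives type I interferon genes downstream of the endosomal receptors, stood apart with 576, 565 and 1045 TPM (729 ± 274, SD, n = 3), and the kinase gene Ikbke had 80.4, 50.8 and 79.3 TPM (70.2 ± 16.7). The adaptor Sarm1 was lowest at 0.0233 ± 0.0153 TPM. The spread test called 13 of the 15 genes with enough counts, with Irak1 and Irf3 not called. It called 70.4% of all tested genes and 92.3% of those that averaged 2000 counts or more. Replicate 3 was the highest library for 9 of those 15, against 38% of all tested genes. Of 6 genes that restrain the pathway 4 were expressed, led by the phosphatase gene Ptpn6 (125 ± 20.8 TPM) and Tollip (17.5 ± 4.23 TPM). Il1rl1 was lowest at 0.0333 ± 0.0416 TPM. The spread test called 4 of the 5 with enough counts, against 70.4% of all tested genes. Of those 5, 4 were highest in replicate 3, against 38% of all tested genes.

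**Figure D5:**
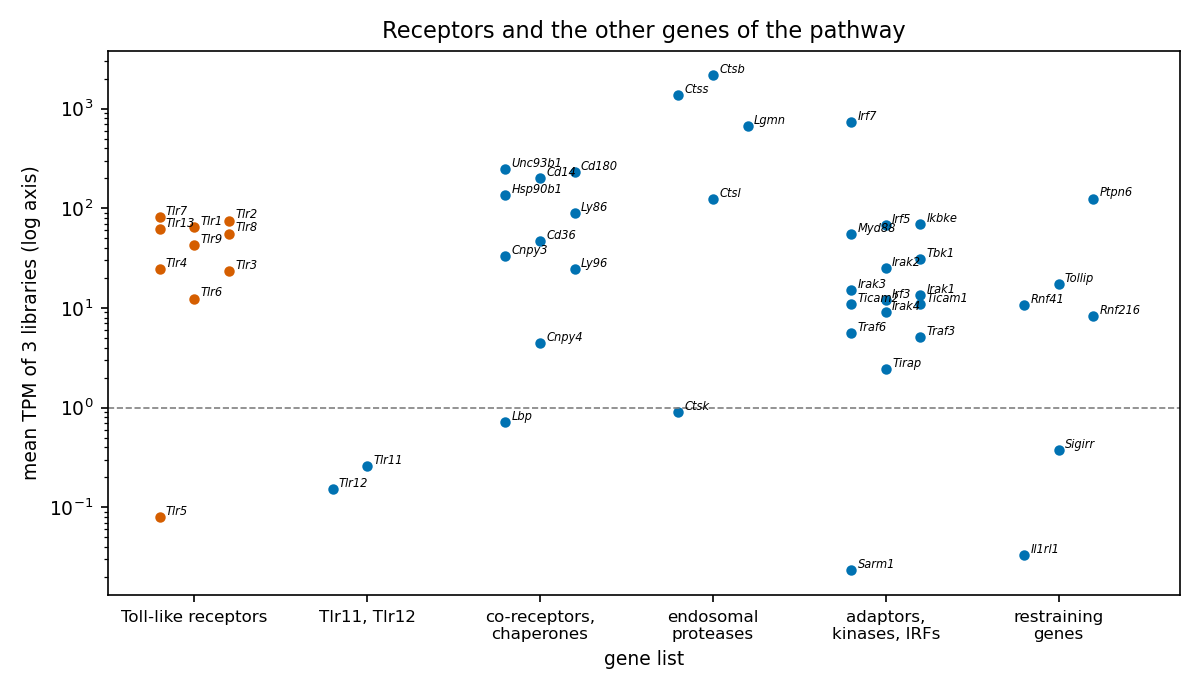
Mean TPM over 3 libraries (log axis) of the Toll-like receptors and of the genes of 5 further lists, with a dashed line at 1 TPM. Receptors other than Tlr5 lie between 12.4 and 81.3 TPM, below Unc93b1, Cd180, Ctsb and Ctss, and their median of 49.2 TPM is above the 12.8 TPM of the adaptors, kinases and interferon regulatory factors.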

How the data were processed

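Cytosolic, ribosome-depleted total RNA of 3 libraries of 1 group was analysed, with 1 µg of input RNA per library and a fragment size of 250 to 400 bases per the labels. The receptors and gene lists were chosen with earlier results of these data known. Expected counts (estimated reads per gene or transcript) and TPM were deposited by the authors for genes and, in 2 tables, for transcripts; the percent of a gene's TPM per transcript is also in the deposited first transcript table but was computed again from TPM. Notes deposited by the authors name mm10 and GENCODE M21. Which aligner and quantifier were run, and with which strand setting, is not given in the sources used here. All 55536 Ensembl identifiers matched GENCODE M21; promoter windows are RefSeq's. Entries that name no gene took 0.0785%, 0.0521% and 0.0251% of counts in replicates 1, 2 and 3 and were left out.

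Expected counts were rounded. Heterogeneity was a Poisson chi-square (2 degrees of freedom) against TMM library sizes for genes averaging 10 or more counts (Benjamini-Hochberg, 0.05), and BCV came from an intercept-only edgeR fit, both tested on simulated data. TPM differences used log2(TPM + 1) within a library and an exact two-sided sign-flip permutation; with 3 libraries its smallest p is 0.25. Each pair of libraries differed past that test in 50.7% to 53.5% of genes, so no library is a second deposit of another; this does not show that they are separate samples. Floors of 3 counts cover counting error only. All receptors are named, with the 2 highest and the lowest gene of each list; Cd14, Ly96, the nuclear RNAs and the Y-linked genes were chosen after their values were seen. Tools were R 4.3.3, edgeR 4.0.16, DESeq2 1.42.0, Python 3.11.15, pandas 2.3.3 and numpy 2.4.6.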

Additional observations from a re-analysis of the deposited data

How the results depend on the processing

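Under the alternatives run, the 5 differences between receptors kept their sign and no count of receptors moved by over 1.5 times. The median BCV of the receptors, 0.168, was 0.128 without replicate 3; leaving out 1 replicate gave 0.128 to 0.189. With DESeq2 size factors or total counts 9 receptors differed beyond counting error, against 9704 and 10111 of 13827 tested genes. With no filter, a minimum mean count of 100 or the second transcript table it was again 9. The tested genes called were then 10193 of 22412, 8118 of 10455 and 13751 of 17351. Without 1 replicate it was 8 to 9, Tlr4 being lost without replicate 3, and 50.7% to 53.5% of tested genes were called. The number of neighbouring pairs in one order was 6 of 9, 5 over transcripts of at least 1500 bases and 6 to 8 without 1 replicate; the causes were not tested. The mean difference between Tlr13 and Tlr9 ran from 0.31 (without replicate 1) to 0.70 (without replicate 2). No paired comparison between groups was possible because the labels give 1 group, and receptors were paired only within libraries. With 3 libraries no sign-flip test could pass 0.05, and with 9 to 16 counts differences between libraries in Tlr5 were not detectable at this depth.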
